A study of Caenorhabditis elegans with 2 samples.

Results

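The cuticle collagen genes considered here are the protein-coding genes of the WBcel235 annotation whose names begin with col- followed by a number, which is 156 of the 19973 protein-coding genes on the nuclear chromosomes. Of these 156, 9 (5.77%, 95% Wilson interval 3.06 to 10.6) had a reproducible NHR-80 summit in the promoter window, which reaches 1000 bp upstream and 200 bp downstream of a gene's annotated 5' end, against 18.6% of all protein-coding genes. The 9 were col-63, col-38, col-74, col-151, col-2, col-149, col-185, col-71 and col-119. Their peaks had signal values from 93.0 to 217, and col-119 carried the weakest peak of the whole thresholded list. At 4 of the 9 genes the summit lay closer to the start of a neighbour on the opposite strand.

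The data are ChIP-seq peak lists from whole hermaphrodite young adults of Caenorhabditis elegans strain OP460, collected 64 hours after synchronisation as starved L1 larvae. The strain carries the unc-119(tm4063) mutation and wgIs460, a stably expressed nhr-80 transgene whose product ends in a GFP-FLAG tag, and the tagged protein was recovered, by the sample description, with an antibody against GFP, while another label names nhr-80 as the antibody. The labels give 1 group with 2 biological replicates, and the same genotype and stage apply to both. Lists of 30000 peaks for replicate 1, 29712 for replicate 2 and 30000 for the pooled replicates were used, with the 7020 nuclear peaks that passed the authors' irreproducible discovery rate (IDR) threshold. The labels give no promoter for the transgene and no nhr-80 mutation, and peaks from different tissues of a whole animal cannot be told apart. Read numbers, and so sequencing depth, are unknown here, and intervals cover counting error over genes only.

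The cuticle is the collagen-rich outer matrix of the worm, which the epidermis, called hypodermis in this animal, secretes anew at each moult. Its collagens are small proteins with Gly-X-Y repeats that are hydroxylated in the endoplasmic reticulum, trimmed by proteases and cross-linked after secretion. NHR-80 is a nuclear hormone receptor related to HNF4, known for its part in fatty acid desaturation and expressed in the intestine among other tissues.

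The sequences under the summits show what each peak sits on, so the 101 bases centred on the summit are given for the 8 genes outside the first chromosome, from the WBcel235 genome and on the strand of the col gene. Capitals mark 3 GATA-type sequences, which are TGATAA, then AGATAA and also CTTATC. They also mark the nuclear receptor hexamer AGGTCA, the HNF4-like CAAAGTCCA and the AP-1-like TGACTCA, all searched on both strands. CTTATC, read on the other strand as GATAAG, shares bases with the first or the second of them wherever these are followed by G. The windows are chrII:8569512-8569612 for col-38, chrII:5830062-5830162 for col-74, chrV:10395515-10395615 for col-151, chrIV:10085865-10085965 for col-2, chrV:10293058-10293158 for col-149, chrX:13511952-13512052 for col-185, chrII:3502784-3502884 for col-71 and chrIV:8980042-8980142 for col-119. Only the col-74 window is on the plus strand.
col-38: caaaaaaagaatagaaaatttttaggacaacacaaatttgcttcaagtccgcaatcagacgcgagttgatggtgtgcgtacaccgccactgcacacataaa
col-74: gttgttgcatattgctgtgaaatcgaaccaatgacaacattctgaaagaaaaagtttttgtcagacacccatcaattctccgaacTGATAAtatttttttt
col-151: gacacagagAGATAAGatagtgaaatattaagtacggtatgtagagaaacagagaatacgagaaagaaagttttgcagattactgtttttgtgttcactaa
col-2: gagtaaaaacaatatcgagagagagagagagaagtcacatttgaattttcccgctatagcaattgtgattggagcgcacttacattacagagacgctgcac
col-149: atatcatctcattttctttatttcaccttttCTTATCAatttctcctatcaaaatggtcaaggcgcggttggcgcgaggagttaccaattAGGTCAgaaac
col-185: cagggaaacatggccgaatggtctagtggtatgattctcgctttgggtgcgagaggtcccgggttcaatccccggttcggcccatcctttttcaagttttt
col-71: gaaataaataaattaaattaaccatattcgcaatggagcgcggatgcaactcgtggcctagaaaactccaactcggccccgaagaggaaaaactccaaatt
col-119: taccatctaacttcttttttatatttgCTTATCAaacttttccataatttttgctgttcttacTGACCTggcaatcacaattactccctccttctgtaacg

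TGATAA was found at 3 of the 9 col summits (33.3%), those of col-74, col-149 and col-119, against 37.9% of all 7020 nuclear thresholded summits. AGATAA was found at the col-151 summit alone (11.1%, against 9.70% of all summits), and CTTATC at the col-151, col-149 and col-119 summits (33.3%, against 26.5%). Any of these GATA-type sequences was present at 4 of 9 (44.4%), against 45.7% of all summits, so the bound col genes held them at a share close to that of all peaks. AGGTCA was present at 2 of 9 summits, col-149 and col-119 (22.2%), against 3.33% of all summits. In both of these genes a CTTATC match lay upstream of the thresholded summit, starting at -19 bp in col-149 and -23 bp in col-119. The AGGTCA match lay downstream of that summit, starting at 40 bp in col-149 on the gene strand and 13 bp in col-119 on the other strand. The order at col-119 depends on the list. Its summit was at -297 bp from the start in the thresholded list. In replicates 1 and 2 it was at -251 and -210 bp, with the AGGTCA match upstream of it. CAAAGTCCA and TGACTCA were at 0 of the 9 summits, against 0.157% and 1.99% of all summits. A match of letters is a description of these windows and not a site.

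GATA-type sequences were common in the promoter windows of col genes with and without a peak. Of the 156 windows, 120 held TGATAA (76.9%), against 72.0% of all protein-coding genes. Among the 9 col genes with a thresholded summit 8 held it (88.9%), and among the 147 without one 112 did (76.2%). Over all protein-coding genes with a thresholded summit the share was 82.1%. AGATAA was in 5 of the 9 windows with a summit (55.6%) and in 61.9% of the 147 without, and in 61.5% of all col windows, against 55.7% of all protein-coding genes. CTTATC was in 6 of the 9 (66.7%) and in 50.3% of the 147, and in 51.3% of all col windows, against 41.6% of all protein-coding genes. The median GC content of the windows was 35.7% for col genes and 35.0% for all protein-coding genes.

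The members with a peak of their own, meaning that no other protein-coding gene had its start closer or its window over the summit, were col-74, col-149, col-119, col-63 and col-185. For col-74 (WBGene00000650, II: 5830374 to 5832022, plus strand) the peak at II: 5829978 to 5830297 had a signal value of 201 in the thresholded list, with 107 in replicate 1 and 94.6 in replicate 2. All 7020 nuclear thresholded peaks have the same summit and signal value in the pooled list, so these lists share 1 scale, while values of each replicate are read against other peaks of that replicate. The summit lay at -262 bp from the start, and at -235 bp in replicate 1 and -263 bp in replicate 2. The gene and its summit both lie inside gtap-1, which runs on the opposite strand, with the summit in an intron of that gene and 3124 bp from its start.

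The col-149 peak (WBGene00000722, V: 10291701 to 10292869, minus strand) was narrower, at 151 bp, and had a signal value of 147, with 71.2 in replicate 1 and 77.5 in replicate 2. Its summit was intergenic at -239 bp, between col-149 and the 3' end of its neighbour col-150, another member on the same strand whose start is the next nearest. In both replicates it ranked inside the 7038 strongest peaks, at 5448 in replicate 1 and 4310 in replicate 2.

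At col-119 (WBGene00000693, IV: 8978926 to 8979795, minus strand) the signal value was 93.0, which is the lowest of the thresholded list and gives rank 7020 of 7020. The next weakest thresholded peak had 93.1. The value was 38.2 in replicate 1, at rank 8799, and 57.5 in replicate 2, at rank 5753, so it fell among the 7038 strongest of replicate 2 and outside those of replicate 1. The summit was at -297 bp, and at -251 and -210 bp in replicates 1 and 2. The whole gene lies inside pdzd-8, the homologue of a mammalian contact site protein of the endoplasmic reticulum, with the summit in an intron of that gene.

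At col-63 and col-185 the summit lay on another annotated feature. The col-63 peak (WBGene00000639, I: 8243694 to 8244963, minus strand) was the strongest of the members, with a signal value of 217, rank 3047 of 7020, and values of 107 and 108 in replicates 1 and 2. The summit at -651 bp fell in the 3' UTR of ceh-8, a homeobox gene on the same strand, and on the noncoding gene ZK265.11. At col-185 (WBGene00000758, X: 13510035 to 13511097, minus strand) the signal value was 132, with 71.6 in replicate 1 and 61.4 in replicate 2. Its summit at -905 bp lay inside a tRNA gene, for proline by RefSeq, annotated on the same strand at X: 13511970 to 13512041, and on the noncoding gene H06A10.3, and no protein-coding start was closer than that of col-185. The tRNA makes up most of the col-185 sequence given above, whose GC content of 52.5% was the highest of the 8 windows.

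The other 4 bound members stood head to head with a gene on the opposite strand, and each shared its only summit with that gene. The col-151 peak (WBGene00000724, V: 10393531 to 10395223, minus strand) had a signal value of 190, with 89.2 in replicate 1 and 101 in replicate 2. Its summit was at -342 bp from col-151 and -98 bp from ugt-1, a UDP-glucuronosyltransferase gene of detoxification (V: 10395663 to 10397820), whose start is 440 bp from that of col-151. For col-38 (WBGene00000615, II: 8568035 to 8569088, minus strand) the value was 202, with 114 in replicate 1 and 87.9 in replicate 2. The summit lay at -474 bp from col-38 and -365 bp from rpl-5, which encodes a protein of the large ribosomal subunit, and on the noncoding genes F54C9.16 and F54C9.17.

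The col-2 peak (WBGene00000593, IV: 10084439 to 10085451, minus strand) had a signal value of 149, with 82.1 in replicate 1 and 66.4 in replicate 2. It lay at -464 bp from col-2 and -222 bp from ndc-80, a gene of the outer kinetochore. At col-71 (WBGene00000647, II: 3500077 to 3502570, minus strand) the value was 126, with 51.4 in replicate 1 and 74.2 in replicate 2. The replicate 1 value ranked 7169, just outside its 7038 strongest peaks, and the replicate 2 value ranked 4513. The summit was at -264 bp from col-71 and -134 bp from the less studied Y49F6B.2. At col-151, col-38, col-2 and col-71 alike, the neighbour had no other thresholded summit in its own window, so these lists do not assign the peaks to either gene.

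**Figure D1:**
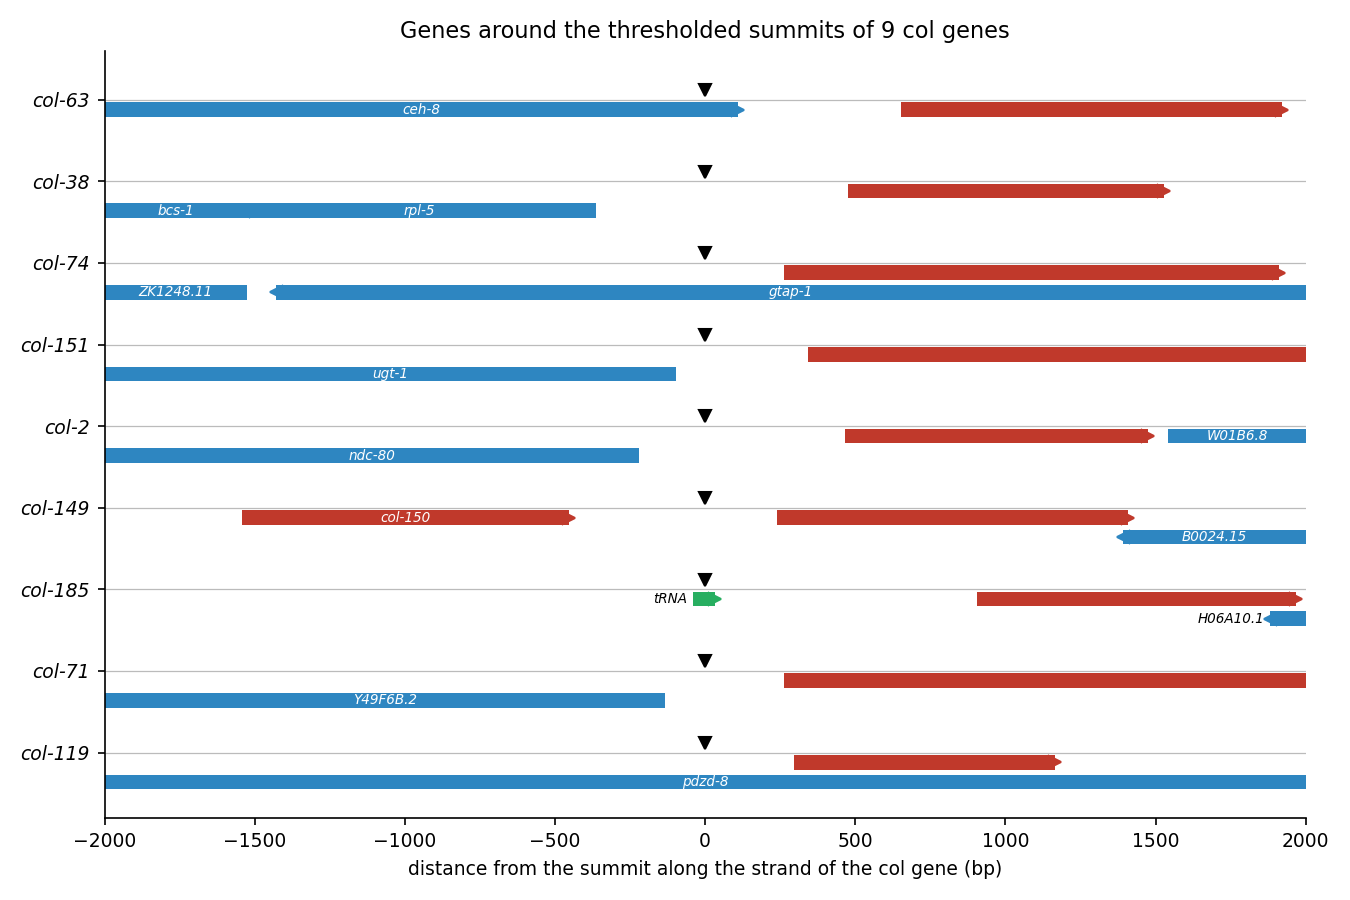
Genes within 2000 bp of the thresholded summit (black triangle) of each bound member, drawn to scale along the strand of the col gene. Red bars are col genes, blue bars other protein-coding genes and the green bar a tRNA gene, with the upper track for the strand of the col gene and the lower for the opposite strand. The starts of rpl-5, ugt-1, ndc-80 and Y49F6B.2 are closer to the summit than the col start, col-74 and col-119 lie within gtap-1 and pdzd-8, and the col-185 summit falls on the tRNA gene.

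Most bound members were in the weaker part of the list. The strongest thresholded summit of each had a median signal value of 149 (93.0 to 217, n = 9 genes), against 202 (93.0 to 1709) over the 3712 protein-coding genes with one. The ranks ran from 3047 to 7020, and 3 of the 9 were above the list's median signal value. Among the 3712 protein-coding genes with a thresholded summit, 1954 had one above that median. With peaks above that median alone, 1.92% of col genes had a summit, against 9.78% of all protein-coding genes. In the replicates taken apart, 7 of the 9 were among the 7038 strongest peaks of both, and col-71 and col-119 were among those of replicate 2 only. Of the 3712 protein-coding genes with a thresholded summit, 3267 also had a summit among the strongest of both replicates. The thresholded list was made from these replicates, so this is no independent check.

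**Figure D2:**
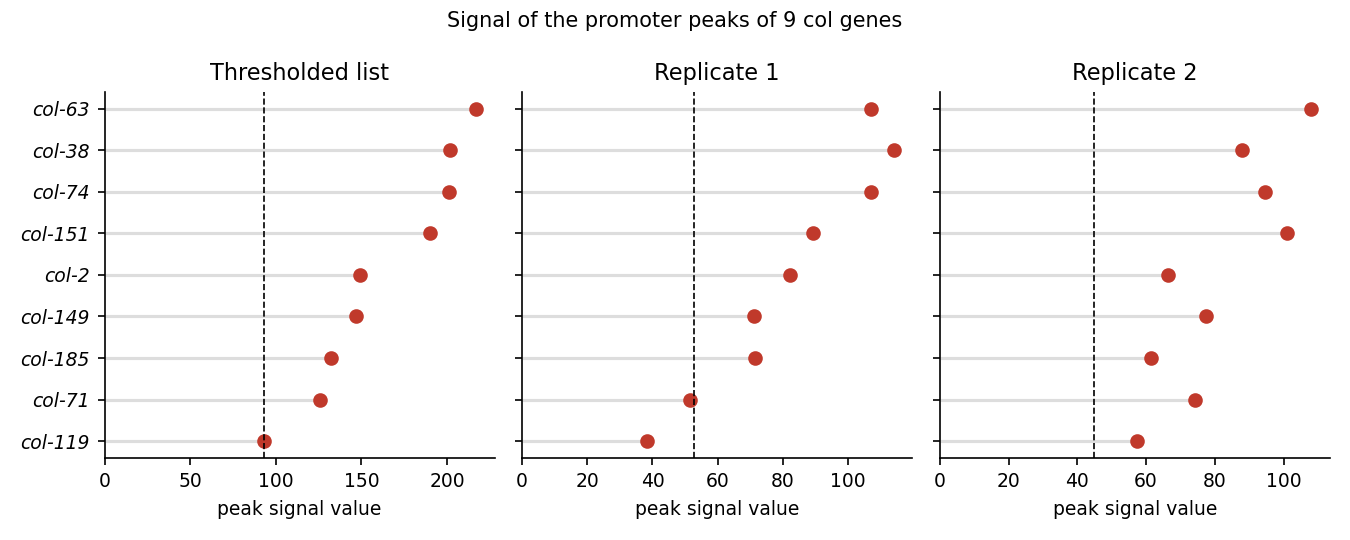
Signal value of the promoter peak of each of the 9 bound col genes in the thresholded list (left), replicate 1 (middle) and replicate 2 (right), each on its own scale. Dashed lines mark the lowest value of the thresholded list (93.0) and of the 7038 strongest peaks of replicate 1 (52.7) and replicate 2 (45.0), and col-71 and col-119 lie below the line in replicate 1.

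The share of col genes was the lower in each of the 4 ce11 lists. In the full pooled list 38 of 156 (24.4%) had a summit in the window, against 38.1% of all protein-coding genes. It was 37 (23.7%, against 39.6%) in the full list of replicate 1 and 40 (25.6%, against 40.0%) in that of replicate 2. With the 7038 strongest peaks of each replicate, 7 col genes (4.49%, against 18.1%) had one in replicate 1 and 12 (7.69%, against 18.4%) in replicate 2. The 3 gained in replicate 2 were col-65, col-159 and col-160. In all, 101 of the 156 col genes (64.7%) had no summit in any of the lists, against 54.1% of all protein-coding genes. Genes that share peaks or lie in clusters are not independent, and no test of the list was made.

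**Figure D3:**
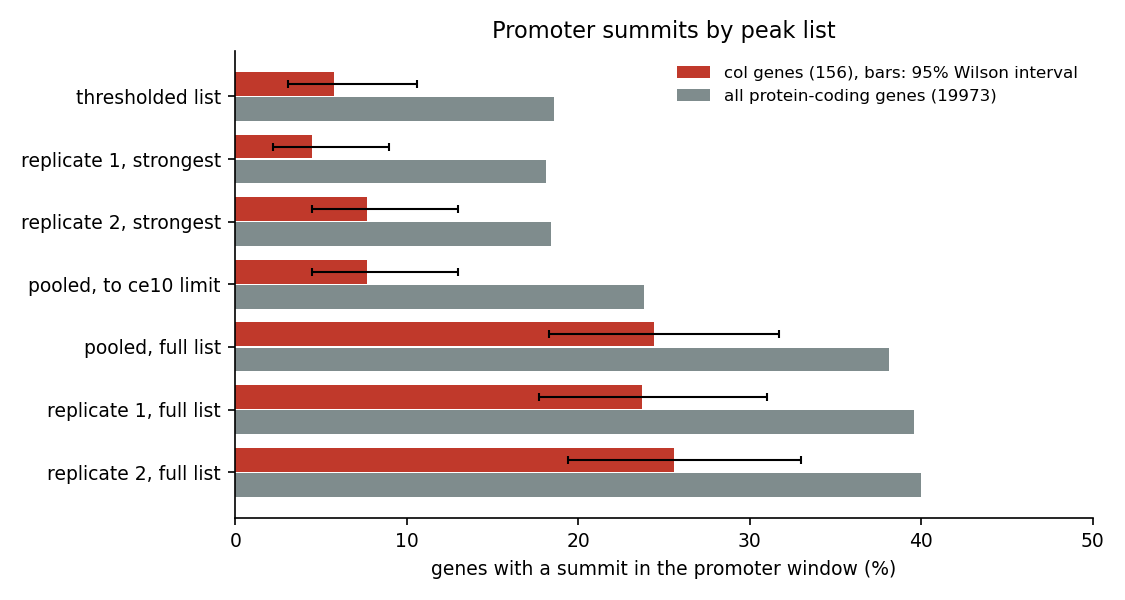
Share of genes with a summit in the promoter window (%), for col genes (red, with 95% Wilson intervals) and all protein-coding genes (grey), by peak list. The col share is the lower in each of the 7 lists drawn, from 4.49% against 18.1% in the strongest peaks of replicate 1 to 25.6% against 40.0% in the full list of replicate 2.

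The promoter peaks of col genes were mostly weak ones that did not pass the threshold. Of the 38 col genes with a pooled summit 9 had a thresholded one (23.7%), against 48.8% of the 7604 protein-coding genes with a pooled summit. The strongest pooled summit of each of the 38 had a median signal value of 26.2, against 89.7 over the 7604. The 29 that did not pass had a median of 15.9 (4.48 to 90.7), and 15 of them had a summit in both replicate lists while 3 had one in neither. No such count was made for other protein-coding genes.

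**Figure D4:**
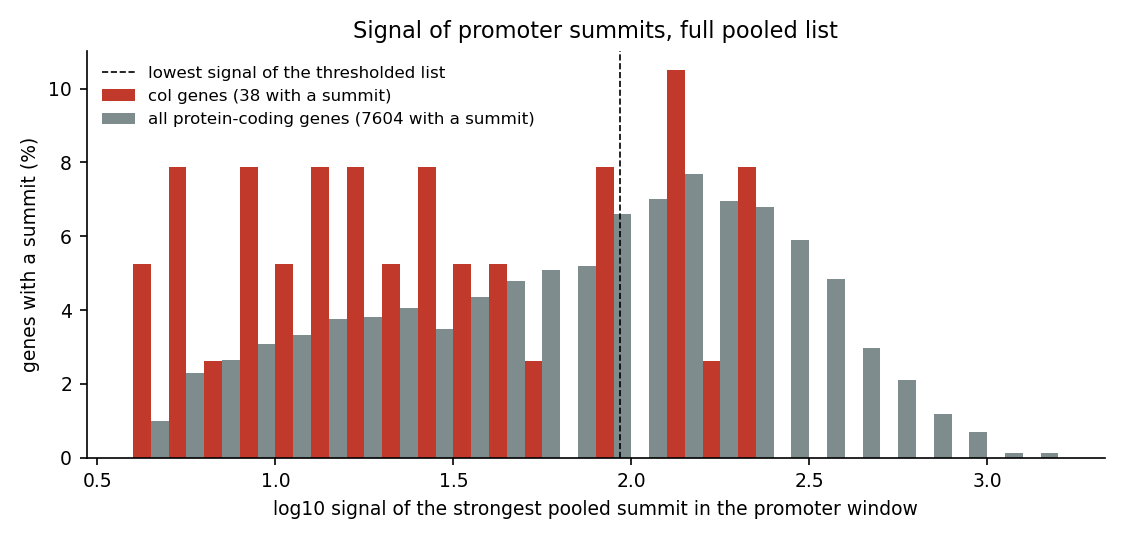
Strongest pooled summit per promoter window by log10 signal value, as a percentage of the genes with a summit, for 38 col genes (red) and 7604 protein-coding genes (grey). The dashed line marks the lowest signal value of the thresholded list (93.0), and 29 of the 38 col genes lie to its left.

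The unbound members nearest to the limit were col-159 and col-160, which are annotated over each other with starts 12 bp apart, so their windows share all summits listed here. They shared a pooled summit with a signal value of 90.7, just below the 93.0 of col-119, and values of 37.4 in replicate 1 and 52.4 in replicate 2. The next were col-62 with 59.5 (27.6 in replicate 1 and 31.6 in replicate 2), col-80 with 42.7 and col-122 with 41.1, which had no summit in the list of replicate 1 and 19.6 in that of replicate 2. Of the 29 unbound members with a pooled summit, 3 had a signal value of 50 or more.

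Some unbound members had a thresholded summit close by but outside the window. The nearest were in introns: at 359 bp from the start in col-85 (164), at 434 bp in col-54, where the summit also lay on a tRNA gene (100), and at 1403 bp in col-76 (190). In col-55 the summit lay at 787 bp, past the 3' end (178), and in col-181 at 1287 bp, past the 3' end and on a tRNA gene (229). A thresholded summit lay inside 4 of the 156 col genes (2.56%: col-54, col-72, col-76 and col-85), against 8.79% of all protein-coding genes, but col genes are shorter, with a median length of 1220 bp against 2027 bp.

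The shape of the window changed which members counted. From 500 bp upstream to 100 bp downstream, 7 col genes had a summit (4.49%, against 14.3% of all protein-coding genes), and col-63 and col-185 were lost. From 2000 bp upstream to 500 bp downstream there were 15 (9.62%, against 24.2%). The 6 gained were col-85, col-54, col-94 (-1807 bp, signal value 194), col-90 (-1514 bp, 122, in the window of the glutathione transferase gene gsto-1), and col-159 and col-160, which shared a summit at -1683 and -1671 bp (177). When the peak interval had only to overlap the window there were 10 (6.41%, against 20.1%), with col-54 added. When each summit was given to the nearest start alone, the 4 head-to-head members dropped out and 5 were left (3.21%, against 15.2%).

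Across the region around the start, col genes showed a lower step than other genes. From -500 to -1 bp, 7 col genes (4.49%) had a thresholded summit, against 13.2% of all protein-coding genes. From -1000 to -501 bp it was 2 col genes (1.28%, against 4.58%). From 2000 to 2499 bp downstream, past the 3' end of a col gene of median length, it was 8 (5.13%, against 2.79%), which is the highest col bin. Over the 10 bins of 500 bp upstream of the start the col share was the lower in 9, and over the 10 downstream bins in 5. In the farthest upstream bin, from -5000 to -4501 bp, it was 1.28% of col genes, against 3.62% of all. From -4000 to -3501 bp, the upstream bin where the col share was the higher, it was 3.85%, against 3.54%. The median distance from the start to the nearest thresholded summit was 6432 bp for col genes and 6006 bp for all protein-coding genes, and 34.0% of col genes against 35.8% of all had none within 10000 bp.

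**Figure D5:**
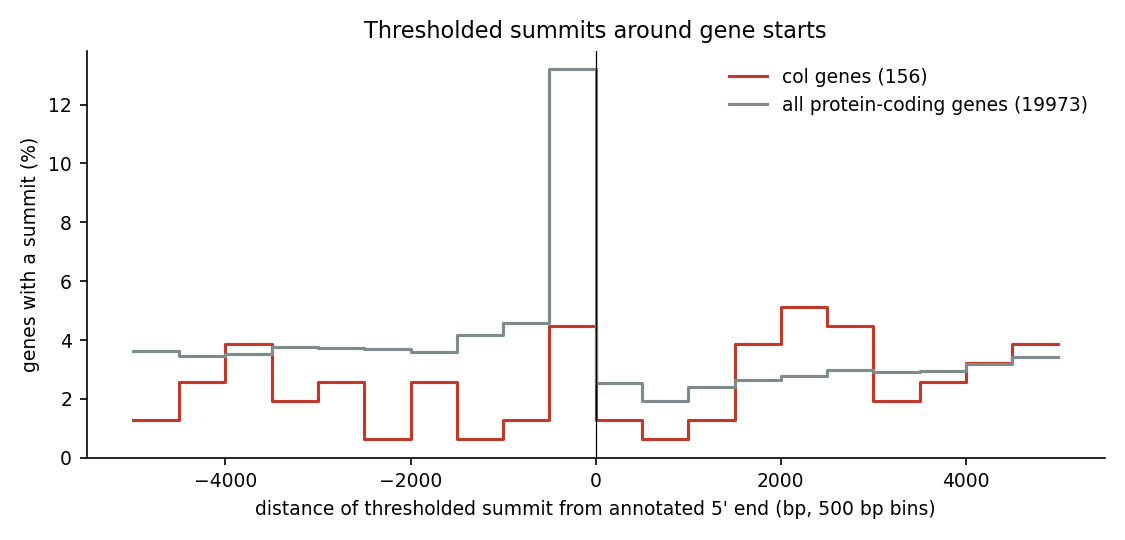
Share of genes with a thresholded summit (%) in 500 bp bins from 5000 bp upstream (negative) to 5000 bp downstream of the annotated 5' end, for col genes (red) and all protein-coding genes (grey). All protein-coding genes reach 13.2% in the bin just upstream of the start and col genes 4.49%, and the col line is the lower in 9 of 10 bins upstream and 5 of 10 downstream.

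The bound members are given here by gene arrangement. Of the 156 col genes 19 (12.2%) had a start on the opposite strand within 1000 bp upstream, against 17.7% of all protein-coding genes. A thresholded summit was found at 4 of these 19 (21.1%, against 29.5% of all such genes) and at 5 of the other 137 (3.65%, against 16.2%). Within 5000 bp of another col gene lay 50 of the 156 members, among them 1 of the 9 bound ones, col-149. Clusters were not counted over all protein-coding genes, so this count has no share to be read against. By chromosome, bound members were 3 of 24 on II (12.5%, against 17.6% of all genes there), 2 of 31 on V (6.45%, against 16.3%), 2 of 41 on IV (4.88%, against 17.5%), 1 of 21 on I (4.76%, against 18%), 1 of 27 on X (3.70%, against 22.8%) and 0 of 12 on III (against 21.7%).

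The members col-19, col-120, col-144 and col-99, a few chosen by name, had no thresholded promoter summit. col-19, a marker of the adult cuticle, had no summit in its window in any list, and its nearest thresholded summit was 2283 bp from the start, in a coding exon of ZK1193.2 (178). col-120, a collagen followed in studies of ageing, had none either, with the nearest at 44619 bp. col-144, from the same field, had only a weak summit in replicate 2, at -39 bp (8.95). col-99, which encodes a membrane-bound collagen rather than a cuticle one, had none, with the nearest at 21617 bp.

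Cuticle collagens named for their mutant body shapes or blisters were looked at in the same way. None of the 21 found in the annotation, such as rol-6, dpy-7, sqt-1 and bli-1, had a thresholded promoter summit, against 18.6% of all protein-coding genes. By a limit of 3 counts, a count of 0 of 21 allows a share of up to 14.3%. These genes are a chosen list, and the difference was not tested. In the full pooled list 4 of the 21 had a summit (19%, against 38.1% of all protein-coding genes), bli-1 with a signal value of 32.3, sqt-3 with 14.7, dpy-14 with 11.8 and dpy-17 with 10.7. In replicate 2 bli-6 had 54.5, at rank 6030, and it had no summit in the pooled list. The 3 basement membrane collagen genes emb-9, let-2 and cle-1 had no summit in the thresholded or the pooled list.

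Genes that process or cross-link collagen included some with strong peaks. Of 21 such genes 5 (23.8%) had a thresholded promoter summit, against 18.6% of all protein-coding genes. They included the protein disulfide isomerase genes pdi-1 (signal value 483, with 260 in replicate 1 and 227 in replicate 2), pdi-3 (407, with 228 and 176, nearest start ubql-1) and pdi-2 (207, with 97.2 and 112), whose product is a subunit of prolyl 4-hydroxylase. These proteins act in the endoplasmic reticulum on many secreted proteins besides collagen. The others were sec-24.1, for a COPII vesicle coat protein (106), and bli-4, for a furin-like protease that trims procollagens (98.9). The thioredoxin-like gene dpy-11 was just outside the list, with a pooled value of 93.0 at rank 7042.

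Of 16 epidermal and moulting regulators 4 (25%) had one, against the same 18.6%. They were myrf-1, a membrane-bound transcription factor gene (signal value 491), blmp-1, a zinc finger factor gene of the epidermis (383), sma-3, a Smad gene of the body size pathway (292), and elt-3, a GATA factor gene of the hypodermis (124). Of 4 hypodermis markers elt-3 alone had a thresholded summit (25%, against the same 18.6%), while dpy-7, rol-6 and grd-10 had none. These markers are not a separate set. elt-3 is among the 16 regulators above, dpy-7 and rol-6 are among the cuticle collagens already counted, and only grd-10 is new. Of 5 intestine markers 4 had one (80%, against 18.6%), pept-1 (988), elt-2 (710), vha-6 (627) and vit-2 (342). ges-1 did not, with a pooled value of 55.1. With the wider window 24.2% of all protein-coding genes had one. All 5 intestine markers then had one, and 1 of 4 hypodermis markers did (25%).

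The thresholded list of the ce10 build reached lower, to a signal value of 52.3 with 9962 peaks. The pooled ce11 list held 9960 peaks at or above that value. Taking those, a setting added after the data were seen, 12 col genes had a summit (7.69%, against 23.8%), and the 3 added were col-62, col-159 and col-160.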

How the data were processed

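NHR-80 ChIP-seq was analysed from 4 peak lists on build ce11, for 2 biological replicates of 1 group, the replicates pooled and the IDR-thresholded list. Per the deposited notes, peaks and background were called with a control for use in IDR, and the thresholded list comes from those lists. No source used here names the peak caller, aligner or IDR limit. The deposited signal value is the authors' own, and describes or ranks peaks only. The thresholded and pooled lists hold the same values, and each replicate has its own scale. The authors' −log10 q values have a ceiling and were left out. Summits were compared with gene starts of Ensembl release 115 on WBcel235, the assembly of ce11. Annotated 5' ends are often trans-splice sites in this species, so transcription can start farther upstream. A summit counted for every window that held it, and mitochondrial peaks were left out. From the ce10 list only its size and lowest signal were used.

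No test was made, because 1 group has no contrast. The members and lists were chosen with earlier results of these data known. Genes named were all bound members, neighbours sharing their summits, the 5 unbound members with the strongest pooled summit, the 5 with the nearest thresholded summit, bound genes of the other lists, and col-19, col-99, col-120 and col-144. Further genes were named after their values were seen. The listed name ram-4 was not matched. For a count of 0, the upper limit is 3 counts of the total. The tools were Python 3.11.15, bedtools 2.31.1, matplotlib 3.10.9, scipy 1.17.1, pandas 2.3.3 and numpy 2.4.6. The window function was tested on simulated data and checked against bedtools, and both found 3712 genes with a thresholded summit. Alternatives were other windows, nearest starts, interval overlap, stronger peaks, other lists and each replicate alone.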

Additional observations from a re-analysis of the deposited data

How the results depend on the processing

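Of 38 values recomputed under alternatives, 30 were equal to those reported or, for counts, within 1.5 times of them, and 8 moved further. The 30 include counts of 0 that stayed at 0, such as those of the basement membrane collagen genes. The 9 bound col genes became 15 with the wider window, 5 with the nearest start only, 3 with peaks above the median signal and 38 with the full pooled list. From the strongest peaks of 1 replicate alone there were 7 without replicate 2 and 12 without replicate 1. In each of these settings the col share was below that of all protein-coding genes. The median signal of 149 became 164 with the wider window. For cuticle collagens with other names the count of 0 was 0 to 1 with either replicate alone. Collagen processing genes with a summit numbered 3 with peaks above the median signal (14.3%, against 9.78% of all protein-coding genes). In the main setting they numbered 5 (23.8%, against 18.6%). AGATAA was at 2 col summits within 100 bp (22.2%, against 17.5% of all summits). Within 50 bp it was at 1 (11.1%, against 9.7%). No paired analysis was possible because there is 1 group. The causes were not tested. With 9 bound genes, 1 gene moves the col share visibly, and col-119 and col-71 rest on replicate 2 more than on replicate 1. Depth and mappability at near-identical collagen genes are unknown.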

Other observations

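Several thresholded summits near col genes lay on tRNA genes. Of the 46 distinct thresholded summits within 3000 bp of a col start, 5 (10.9%) fell inside an annotated tRNA gene, against 124 of all 7020 nuclear summits (1.77%). This was looked at after the col-185 summit had been seen, with a distance chosen then, and was not tested. They were near col-181 (1287 bp from the start, signal value 229), col-185 (-905 bp, 132), col-98 (-2879 bp, 116), col-72 (2664 bp, 111) and col-54 (434 bp, 100), the tRNA genes at col-72 and col-54 lying within the col gene. Without col-185, 8 col genes had a thresholded promoter summit.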
